A study of Mus musculus with 23 samples.

Results

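Collagens are the triple-helical proteins of the extracellular matrix, and their transcripts were measured here on 23 one-colour arrays of mouse brain. A row of the deposited table of log2 intensities was taken as a collagen when the gene name on the array was Col, digits, a and digits. This gave 40 of 31395 rows, from 37 of the 41 collagen genes on the array. The study asked how 8 weeks of access to a chocolate-based diet changed behaviour and brain gene expression. Female C57BL/6 mice, labelled as 5 weeks old, ate standard chow (SC, labelled lean) or chose freely between chow and a chocolate mixture of Mars, Bounty, Snickers and Milka (CM, labelled obese). After an 11-day battery of behavioural tests the frontal cortex (FC), the striatum (ST) and a tissue block that the protocol calls hypothalamus and the sample labels call thalamic (HT) were dissected. Each of the groups SC_FC, SC_ST, CM_ST, SC_HT and CM_HT had 4 arrays and CM_FC had 3, which limits the precision. Arrays are named by group and mouse number (52, 54, 56 or 58), and a number stands for 1 mouse within a diet.

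Collagen chains wind into trimers and sort into classes by what the trimers build. Fibrillar collagens form the banded fibrils of connective tissue, fibril-associated collagens decorate their surface, type IV forms the network of basement membranes, and type VI forms beaded filaments at the border between cells and matrix. In the brain, collagen is scarce in the tissue between neurons and rich in the meninges, the vessel walls and the base of the choroid plexus, while several of the rarer chains are made by neurons.

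The 40 rows were 11 fibrillar, 10 fibril-associated, 5 type IV, 4 type VI, 5 transmembrane, 2 multiplexin, 2 short chain network rows and Col7a1. Col10a1, Col13a1, Col28a1 and Col4a3 were on the array with every identifier below the filter on low values, and Col6a3, Col6a5, Col21a1 and Col26a1 were not analysed here. No spot of the 40 rows was saturated on any array. Col6a6 was well above its local background on 0 of 23 arrays, so its values are background. Col8a1 was well above background on 4 of 4 arrays in each HT group, on 2 arrays of CM_ST and on 0 arrays in SC_FC, CM_FC and SC_ST. Rows that pass a filter through some regions and not others had to differ between regions, which bears on Col8a1 and on the row NM_007733 of Col19a1. Log2 values of different probes are not on a common scale, so levels are compared between samples and not between genes.

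The tissue labels were checked against marker genes, as the mean log2 intensity of each list. The 7 rows of cortical neuron markers ran from 9.93 to 10.71 in the FC arrays and from 6.85 to 7.82 in the HT arrays. Striatal markers ran from 12.71 to 13.69 in the ST arrays. The HT arrays were high in both candidate sets: thalamus markers lay between 9.55 and 11.01, against 7.23 to 7.77 in FC, and hypothalamus markers between 9.50 and 13.6. On SC, 10 of 11 thalamus rows and 4 of 8 hypothalamus rows passed as higher in HT than in FC, so markers of both tissues were present, and the block is called HT by its group name. Several arrays carried markers of a neighbouring tissue. Cortical markers stood at 9.92 in SC_ST 54 and 9.22 in SC_ST 58, against 8.01 and 7.97 in SC_ST 52 and SC_ST 56. Striatal markers stood at 10.47, 11.14, 11.02 and 11.05 in SC_FC 54, SC_FC 56, SC_FC 58 and CM_FC 58, against 8.76 in SC_FC 52. In HT they reached 10.43 in SC_HT 54 and 9.57 in CM_HT 58. Hypothalamus markers reached 11.73 in SC_ST 52.

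A pair of non-neural signals also marked single arrays. The choroid plexus list (9 genes, brightest Enpp2) had a mean of 12.98 in CM_ST 58, with Ttr at 18.21 and Folr1 at 11.59, while the other CM_ST arrays lay between 8.44 and 9.27. The list of meningeal and perivascular fibroblast markers (10 genes, brightest Mgp) had a mean of 9.99 in SC_HT 58, against 7.95 to 8.34 in the other SC_HT arrays, of 9.44 in CM_HT 54, against 8.22 to 8.69 in the other CM_HT arrays, and of 9.62 in SC_FC 58. Endothelial markers were level, between 9.38 and 9.70 on the 23 arrays, and pericyte and smooth muscle markers lay between 9.24 and 9.98. None of the fibroblast, endothelial, or pericyte and smooth muscle rows (10, 9 and 8 rows) passed the limma test in a region or diet comparison. At an unadjusted p under 0.05, 2, 0 and 0 fibroblast rows differed in ST against FC, HT against FC and HT against ST on SC, with 0 in each diet comparison. The endothelial rows at that p were 0, 2 and 1 in the regions and 2 in each diet comparison, and the pericyte and smooth muscle rows 1, 0 and 1 in the regions and 2, 0 and 1 for diet in FC, ST and HT. Of all rows, 29, 50.4 and 33 percent had such a p in the regions in that order, and 40, 25.5 and 13.2 percent for diet. The arrays sat on 3 slides, and the groups were spread unevenly over them. Slide 1 held SC_FC 54, SC_FC 56, SC_FC 58, SC_ST 52 and the 4 CM_ST arrays, slide 2 held SC_FC 52, SC_ST 54, SC_ST 56, SC_HT 58 and the 4 CM_HT arrays, and slide 3 held SC_HT 52, SC_HT 54, SC_HT 56, SC_ST 58 and the 3 CM_FC arrays.

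How collagens differ between the regions of mice on chow was read from the SC arrays, with a call at 2-fold and an adjusted p under 0.01. Rows at background on every array of a group compared have only a bound and are left out of these counts, a choice made after seeing the data. This leaves 38 collagen rows for ST against FC and 37 for the others. In HT against FC, 6 collagen rows (16.2%) were lower in HT, where 4.2 percent of all such rows were, and 2 (5.41%) were higher, where 4.32 percent were. Against ST, 3 rows (8.11%) were lower in HT beside 2.98 percent of all such rows, and 2 (5.41%) were higher beside 2.08 percent. At an unadjusted p under 0.05, 14 of 40 collagens (35%) were higher in HT than in ST, beside 17.3 percent of all rows. At that p 6 (15%) were lower, beside 15.7 percent. The median collagen difference in HT against ST was 0.30, against 0.03 over all rows. In HT against FC at that p, 8 (20%) were higher, beside 26.6 percent, and 14 (35%) were lower, beside 23.8 percent. Between ST and FC, 3 rows (7.89%) were lower in ST beside 0.958 percent. In that comparison limma called 0 collagens higher in ST, where 1.35 percent of such rows were higher, and 1 of 40 collagens was higher at an unadjusted p under 0.05, beside 14.9 percent of all rows. With slide as a fixed block, 2 collagens were called in HT against FC, 3 in HT against ST and 3 in ST against FC. Which comparison had the most calls thus changed when slide terms were in the model. The share of all rows called in that model is not given. The 3 comparisons share arrays, since each SC group enters 2 of them, so their values stand side by side without a count of overlap. In bulk tissue, fewer cells of a type and less RNA per cell cannot be told apart.

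**Figure D1:**
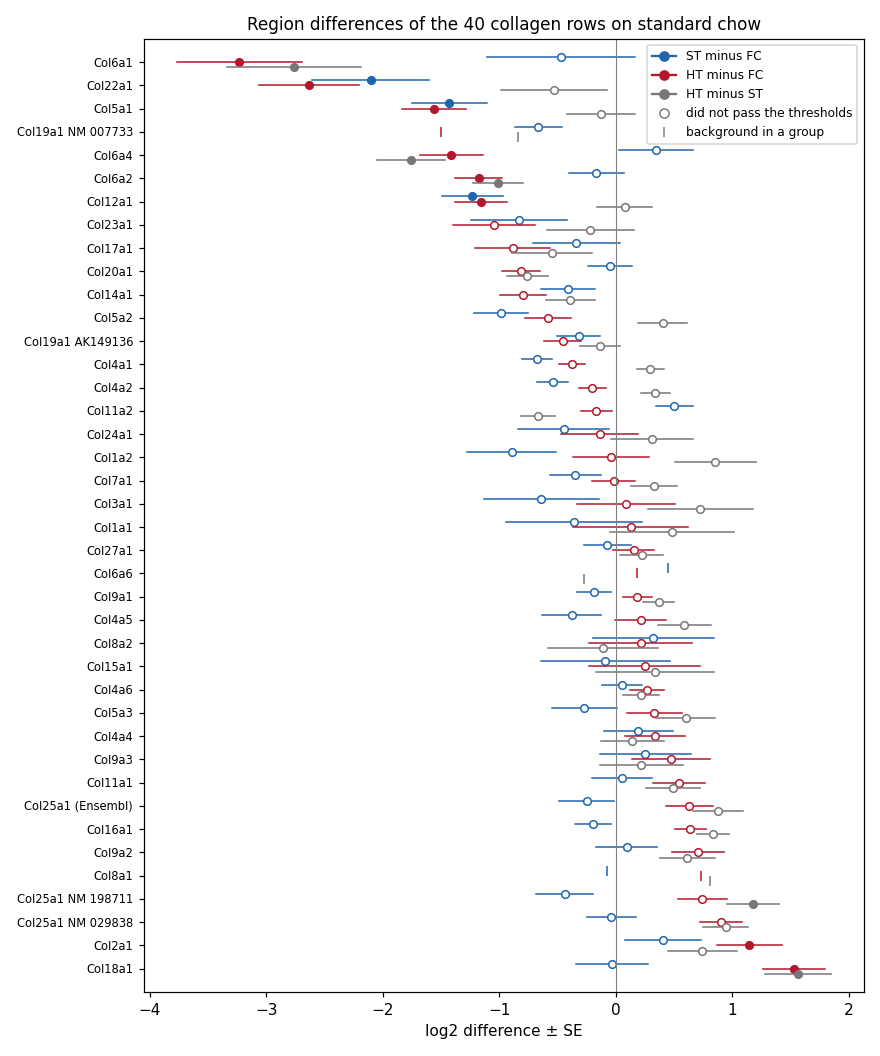
Log2 difference of each of the 40 collagen rows between regions on SC, as points with standard errors, for ST against FC, HT against FC and HT against ST; filled points passed 2-fold and an adjusted p under 0.01, and bars mark rows at background in a group compared. The lowest filled points are Col6a1 at -3.23 in HT against FC and -2.76 in HT against ST, and the highest is Col18a1 at 1.56 in HT against ST.

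Type VI had 3 of its 4 rows lower in HT than in FC and in ST, and the fourth, Col6a6, was at background. Type VI chains form the beaded filaments that link cells to the matrix around them, and Col6a1 and Col6a2 assemble with a further type VI chain. Col6a1 (NM_009933, probe at chr10:76171538-76171597 of mm9) read 11.98, 12.63, 11.94 and 11.83 in SC_FC and 11.56, 11.62, 11.42 and 12.44 in SC_ST. In SC_HT it read 7.88, 10.47, 8.04 and 9.64, and in CM_HT 7.70, 8.79, 8.22 and 9.64. Each of the 8 HT arrays was below each of the 15 others, and the HT arrays spread widely, with SC_HT 54 the highest of them. The difference was -3.23 against FC (log2, SE 0.539, n = 4 and 4, adjusted p 8.97e-05) and -2.76 against ST (SE 0.576, adjusted p 0.00147). Striatal markers were also high in SC_HT 54, at 10.43, and their part in its Col6a1 level was not tested.

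Col6a2 (NM_146007, chr10:76058931-76058990 of mm9) read 8.04, 8.04, 8.07 and 8.20 in SC_FC, 7.81, 7.83, 7.86 and 8.74 in SC_ST, and 6.52, 6.86, 6.85 and 7.68 in SC_HT. The HT arrays were again lowest, with SC_HT 58 close to the ST arrays. It was lower in HT by -1.18 against FC (SE 0.2, adjusted p 0.000109) and by -1.01 against ST (SE 0.214, adjusted p 0.00167). Col6a4 (NM_026763, chr9:105893016-105893075 of mm9), a chain of the same filaments in the mouse, read 6.06, 6.69, 6.42 and 6.60 in SC_FC, 6.92, 6.72, 6.84 and 6.92 in SC_ST, and 4.93, 5.32, 4.89 and 5.38 in SC_HT. It was well above background on 3 of the SC_HT arrays and 2 of the CM_HT arrays, so its HT level was near the floor, and no array of SC_HT overlapped the other SC regions. The difference was -1.41 against FC (SE 0.274, adjusted p 0.00038) and -1.75 against ST (SE 0.292, adjusted p 0.000169). Col6a6 stayed at background, between 3.89 and 5.03.

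With slide as a fixed block, the type VI differences from FC were -3.21 for Col6a1 (adjusted p 0.0378), -1.24 for Col6a2 (adjusted p 0.0191) and -1.05 for Col6a4 (adjusted p 0.151), and none passed. Against ST they were -2.81 for Col6a1 (adjusted p 0.0294), -1.09 for Col6a2 (adjusted p 0.0133) and -1.64 for Col6a4 (adjusted p 0.00797), and Col6a4 passed. Within slide 2, HT was below FC by -2.34, -0.36 and -0.68 for Col6a1, Col6a2 and Col6a4, with 1 array each, SC_HT 58 and SC_FC 52. SC_HT 58, the SC_HT array highest in fibroblast markers, stands for HT in every slide 2 value on SC. Against ST the values within slides 2 and 3 were -1.88 and -3.64 for Col6a1, -0.16 and -1.99 for Col6a2, and -1.40 and -1.88 for Col6a4. Every one of these within-slide values was below 0. The Col6a2 call against ST ended without SC_HT 52 (-0.96), SC_HT 54 (-0.94), SC_ST 54 (-0.99) or SC_ST 58 (-0.90), each just under 2-fold. Without SC_ST 54 and SC_ST 58, the ST arrays high in cortical markers, the differences from ST were -2.61 for Col6a1 (adjusted p 0.0351) and -0.89 for Col6a2 (adjusted p 0.0356), and of type VI Col6a4 alone passed. Without SC_HT 54 and CM_HT 58, Col6a2 was -0.95 from ST (adjusted p 0.0113). Without SC_FC 56, SC_FC 58 and CM_FC 58, the 3 FC arrays highest in striatal markers, the differences from FC were -3.53 (adjusted p 0.0257), -1.07 (0.0673) and -1.30 (0.0632) for Col6a1, Col6a2 and Col6a4, and none passed. With SC_FC 54 left out too, 1 SC_FC array remained and the other groups supplied the spread, so differences stand without a p: -3.14, -1.12 and -0.98.

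The sequences upstream of the paired chains Col6a1 and Col6a2 are shown because both moved in the same comparisons and the genes lie near each other on chromosome 10. The windows run from 250 bases before to 50 bases after the start of the RefSeq gene model in GRCm38.p6, read on the minus strand, and 30 collagen genes of the table had such windows, 33 in all. Capitals mark the GC box, GGGCGG or its reverse complement CCGCCC, which 35.7% of 32851 mouse promoter windows of 300 bases hold. Col6a1, at chr10:76725995-76726294, holds none. Col6a2 has a pair of annotated starts: the window at chr10:76623355-76623654 holds 3 GC boxes, of which a pair overlap each other, and the window at chr10:76623581-76623880 holds 1. A match is a description of letters and not a site.
Col6a1: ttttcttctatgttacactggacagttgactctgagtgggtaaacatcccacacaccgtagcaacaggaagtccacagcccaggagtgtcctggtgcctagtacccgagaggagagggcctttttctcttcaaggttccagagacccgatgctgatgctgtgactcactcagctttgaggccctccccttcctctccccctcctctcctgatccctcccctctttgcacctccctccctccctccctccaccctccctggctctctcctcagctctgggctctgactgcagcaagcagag
Col6a2, downstream start: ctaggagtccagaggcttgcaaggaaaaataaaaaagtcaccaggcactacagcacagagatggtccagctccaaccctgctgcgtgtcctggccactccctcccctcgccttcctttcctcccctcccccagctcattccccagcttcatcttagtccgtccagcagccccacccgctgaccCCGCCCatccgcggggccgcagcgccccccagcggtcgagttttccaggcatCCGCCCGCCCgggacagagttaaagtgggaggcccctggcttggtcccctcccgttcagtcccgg
Col6a2, upstream start: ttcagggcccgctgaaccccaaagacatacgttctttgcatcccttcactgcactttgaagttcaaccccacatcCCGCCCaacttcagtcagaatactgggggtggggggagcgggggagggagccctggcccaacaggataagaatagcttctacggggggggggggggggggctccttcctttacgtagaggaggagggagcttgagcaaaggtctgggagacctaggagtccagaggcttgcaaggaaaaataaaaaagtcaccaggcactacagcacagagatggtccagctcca

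**Figure D2:**
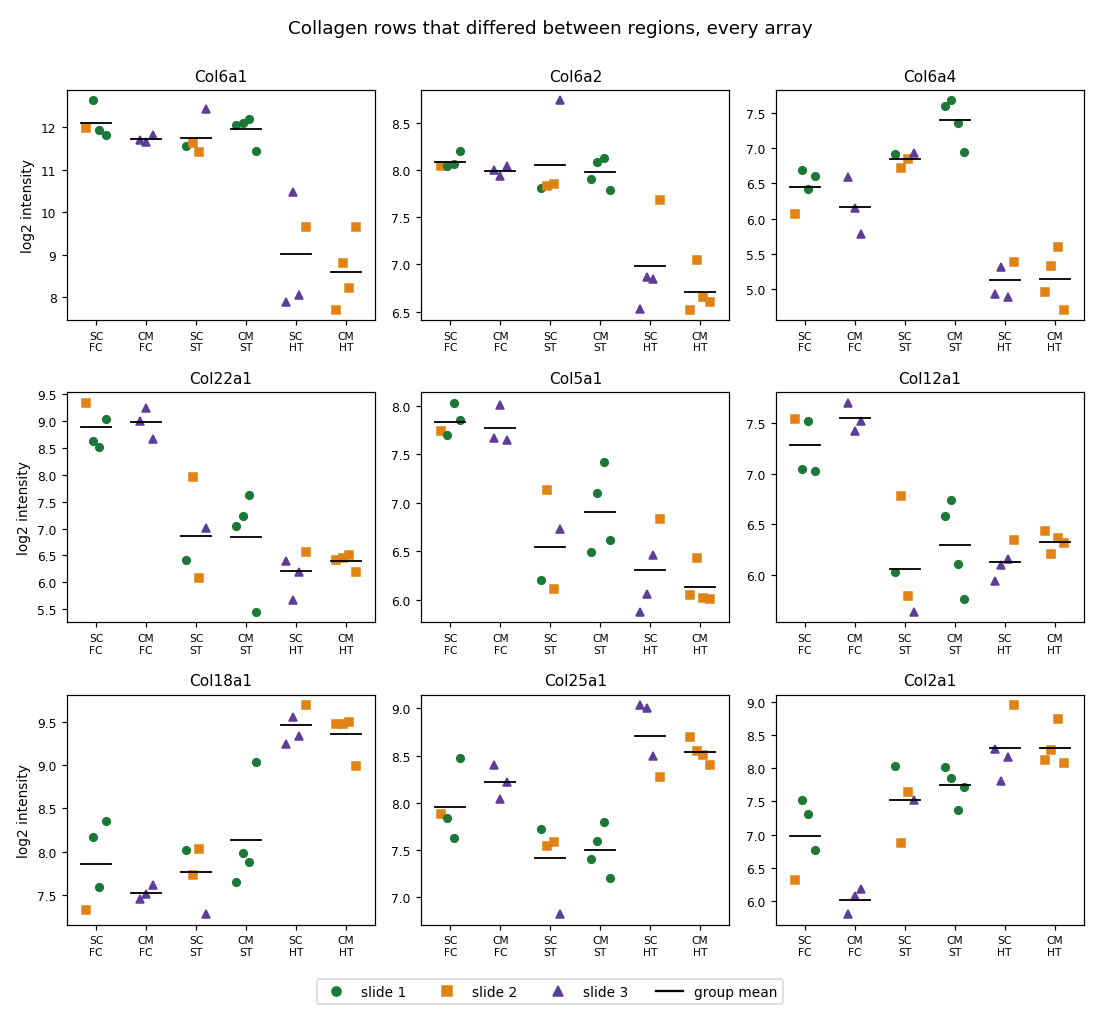
Log2 intensity of 9 collagen rows on each of the 23 arrays, by region and diet, with the marker shape giving the slide. The HT arrays of Col6a1 lie between 7.70 and 10.47 and those of the other regions between 11.42 and 12.63, while Col18a1 lies between 8.99 and 9.70 in HT and reaches 9.04 in CM_ST 58.

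Fibril-associated collagens sit on the surface of collagen fibrils and tie them to other matrix. Of their 10 rows, Col22a1 and Col12a1 were lower than in FC in both ST and HT. Col22a1 (NM_027174, chr15:71628906-71628965 of mm9), found at tissue junctions such as that of muscle and tendon, read 9.34, 8.64, 8.52 and 9.04 in SC_FC. In SC_ST it read 6.41, 7.96, 6.08 and 7.01, and in SC_HT 6.40, 5.66, 6.18 and 6.57. FC was above every array of the other regions, and the ST arrays spread most, with SC_ST 54 nearest to FC. The difference from FC was -2.10 in ST (SE 0.5, adjusted p 0.00878) and -2.63 in HT (SE 0.427, adjusted p 6.63e-05). Col12a1 (NM_007730, chr9:79446895-79446954 of mm9), a collagen of fibrils under load, read 7.55, 7.05, 7.53 and 7.03 in SC_FC, 6.03, 6.78, 5.78 and 5.63 in SC_ST, and 5.93, 6.09, 6.15 and 6.34 in SC_HT. Again no ST or HT array on SC reached the FC arrays, and SC_ST 54 was the nearest. It was lower by -1.23 in ST (SE 0.263, adjusted p 0.0048) and by -1.16 in HT (SE 0.224, adjusted p 0.000377).

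Col19a1, a collagen that some cortical interneurons make, has 2 rows. The row NM_007733 (chr1:24265650-24265709 of mm9) read 6.18, 5.94, 6.37 and 5.97 in SC_FC and 5.64, 5.58, 5.51 and 4.86 in SC_ST. In SC_HT it read 4.71, 4.75, 4.47 and 4.86, and it was well above background on 0 of the 8 HT arrays. Against the background floor it was at least 2.67-fold lower in HT than in FC, and no exact difference is given. In ST it was -0.66 from FC (adjusted p 0.032), short of 2-fold. Members of the class that passed an adjusted p of 0.05 without 2-fold in HT against FC were Col14a1 at -0.80, Col20a1 at -0.81, Col19a1 AK149136 at -0.46, Col16a1 at 0.64 and Col9a2 at 0.71. The probes of 1 gene did not always move alike: the 3 Col16a1 probes gave 0.06, 0.69 and 1.18, and the 2 Col14a1 probes -1.42 and -0.17. The 2 Col9a1 probes gave 1.03 and -0.29 for HT against ST. The type IX chains Col9a1, Col9a2 and Col9a3, which form 1 trimer in cartilage, gave 0.18, 0.71 and 0.47 for HT against FC.

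Fibrillar collagens gave 1 lower row of 11 in ST against FC, and 1 lower and 1 higher row in HT against FC. Col5a1 (NM_015734, chr2:27892892-27892951 of mm9), a chain that nucleates fibrils, read 7.74, 7.69, 8.03 and 7.85 in SC_FC, 6.2, 7.12, 6.11 and 6.73 in SC_ST, and 5.87, 6.06, 6.46 and 6.83 in SC_HT. FC stood apart from both, while ST and HT overlapped. The difference from FC was -1.43 in ST (SE 0.322, adjusted p 0.00657) and -1.56 in HT (SE 0.275, adjusted p 0.000157). Col5a2, its partner chain, was -0.98 in ST (adjusted p 0.00848) and -0.58 in HT, short of 2-fold, with 0.33 in HT within slide 2. The slide 2 value rests on SC_HT 58, the highest SC_HT array for Col5a2 at 6.23. Col5a2 was well above background on 1 of the 4 SC_ST arrays. Col2a1 (NM_001113515, chr15:97806071-97806130 of mm9), the main collagen of cartilage, went the other way. It read 6.32, 7.52, 7.30 and 6.77 in SC_FC and 8.29, 7.81, 8.17 and 8.95 in SC_HT, where no arrays overlapped, and the difference was 1.15 (SE 0.276, adjusted p 0.00238). Without SC_HT 58, the array highest for it and for fibroblast markers, the difference was 0.996 and fell short of 2-fold.

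Col22a1, Col12a1 and Col5a1 followed the cortical markers among the ST arrays in part: SC_ST 54, with cortical markers at 9.92, had the highest SC_ST value of each. SC_ST 58, at 9.22, had Col22a1 at 7.01 and Col5a1 at 6.73 but the lowest Col12a1, 5.63. CM_ST 58, with cortical markers at 6.99, had the lowest Col22a1 of all ST arrays, 5.45. Its Col5a1, at 6.61, was above that of SC_ST 52, SC_ST 56 and CM_ST 52. CM_ST 56, with cortical markers at 8.74, had the highest Col5a1 of all ST arrays, 7.42. The part of dissected cortex in these levels was not tested. With slide as a fixed block the ST against FC differences were -2.34 for Col22a1 (adjusted p 0.00553), -1.33 for Col12a1 (adjusted p 0.00446) and -1.43 for Col5a1 (adjusted p 0.00948), and each passed. Within slides 1 and 2 they were -2.32 and -2.32 for Col22a1, -1.17 and -1.26 for Col12a1, and -1.65 and -1.12 for Col5a1. For HT against FC the slide-block values were -2.98 (adjusted p 0.0116), -1.03 (adjusted p 0.105) and -1.52 (adjusted p 0.0486) for the same genes, and none passed. The slide-block value was 2.04 for Col2a1 (adjusted p 0.00704), which passed. On slide 2, where 1 array of each group sat (SC_HT 58 and SC_FC 52), HT minus FC was -2.78 for Col22a1 and -1.20 for Col12a1. It was -0.91 for Col5a1 and 2.63 for Col2a1.

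**Figure D3:**
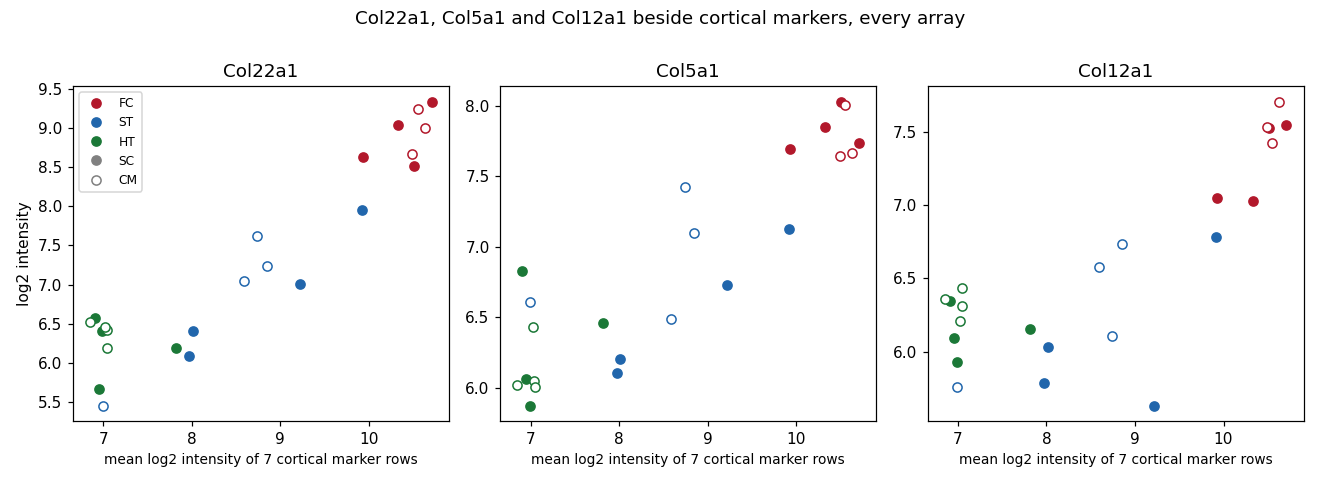
Log2 intensity of Col22a1, Col5a1 and Col12a1 on each of the 23 arrays against the mean log2 intensity of the 7 cortical marker rows on the same array, by region. The FC arrays lie at marker means of 9.93 to 10.71, the HT arrays at 6.85 to 7.82, and SC_ST 54 at 9.92.

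Each ST against FC call ended on the removal of some single arrays. The array weights in the fit were 1.06 for SC_ST 56 and from 0.22 to 0.52 for the other SC_ST arrays. The Col12a1 call ended without SC_ST 52 (-1.07, adjusted p 0.0188), SC_FC 56 (-1.06, adjusted p 0.0224) or SC_ST 56 (-0.74, adjusted p 0.118). The Col5a1 call ended without SC_ST 52 (-1.21, adjusted p 0.0247), SC_FC 54 (-1.47, adjusted p 0.0115), SC_FC 56 (-1.36, adjusted p 0.0206), SC_ST 56 (-0.92, adjusted p 0.109) or SC_FC 58 (-1.47, adjusted p 0.0105). The Col22a1 call ended in 18 of 23 removals, those of any array other than SC_ST 54, SC_HT 58, CM_ST 56, CM_FC 58 and CM_ST 58. Its adjusted p then ran from 0.01 to 0.182, and its smallest difference was -1.14, without SC_ST 56. The count of collagens lower in ST was 0 without SC_ST 52, SC_FC 56 or SC_ST 56 and 1 without SC_FC 54. In HT against FC, the Col12a1 call ended without SC_FC 56 (-0.99). Without SC_FC 56, SC_FC 58 and CM_FC 58 together, ST against FC was -2.35 for Col22a1 (adjusted p 0.182), -1.28 for Col12a1 (0.169) and -1.25 for Col5a1 (0.311), and none passed. Nor did any without SC_ST 54 and SC_ST 58, at -2.54 (0.0146), -1.38 (0.0118) and -1.72 (0.0144), while Col22a1 at -2.11 (0.0135) and Col5a1 at -1.43 (0.0112) fell short without SC_HT 54 and CM_HT 58. Without the 3 FC arrays, HT against FC was -2.87 for Col22a1 (adjusted p 0.0185), -1.20 for Col12a1 (0.0555), -1.37 for Col5a1 (0.0751) and 1.36 for Col2a1 (0.0712), and none passed. Against SC_FC 52 alone, with SC_FC 54 left out as well, the differences were -3.18, -1.42, -1.42 and 1.91, and ST against FC was -2.65, -1.50 and -1.30 for Col22a1, Col12a1 and Col5a1.

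The other fibrillar chains differed less between regions. The type I chains Col1a1 and Col1a2, which make the bulk of connective tissue fibrils, were -0.36 and -0.89 in ST against FC and 0.48 and 0.85 in HT against ST. Col3a1, which forms the fine fibrils of vessel walls, gave -0.64 and 0.73 for the same comparisons, and none of the 3 passed. The median difference of the 10 fibroblast marker rows was -0.68 in ST against FC and 0.46 in HT against ST, with -0.36 in HT against FC. These 3 chains were high on the arrays highest in fibroblast markers. SC_HT 58, with fibroblast markers at 9.99 and Mgp at 13.33, had Col1a1 at 10.04, Col1a2 at 12.53 and Col3a1 at 7.42, each the highest of its group. SC_FC 58, with fibroblast markers at 9.62, had Col1a2 at 12.16 and Col3a1 at 7.48, again the highest of its group, and CM_HT 54, at 9.44, had Col1a1 at 9.30, Col1a2 at 11.88 and Col3a1 at 6.82, the highest of CM_HT. Elsewhere these chains went with the list on some arrays and not on others. SC_FC 56, lowest of SC_FC in fibroblast markers at 7.99, was lowest in Col1a1 at 7.77, Col1a2 at 10.97 and Col3a1 at 5.65. CM_ST 58, highest of CM_ST in fibroblast markers at 8.86, was highest in Col1a1 at 8.84 and Col1a2 at 11.31 but not in Col3a1. Other arrays did not go with the list. CM_FC 58 had Col1a1 at 9.85 and Col3a1 at 7.35 where CM_FC 54 had 8.53 and 6.13, with fibroblast markers at 8.91 and 8.92, and SC_ST 54 had the highest Col1a1 of SC_ST, 8.57, with the lowest fibroblast mean, 7.83. The share of meningeal tissue in these values was not tested. The type XI chains Col11a1 and Col11a2, partners in cartilage fibrils, gave 0.54 and -0.17 for HT against FC. Col5a3, Col24a1 and Col27a1 lay between -0.14 and 0.33 in that comparison.

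Type IV collagen is the network of vessel basement membranes, and none of its 5 rows passed 2-fold in a region comparison by limma. At an unadjusted p under 0.05, 2 rows differed in ST against FC, 1 in HT against FC and 3 in HT against ST, beside 29, 50.4 and 33 percent of all rows. Its main vascular chains Col4a1 and Col4a2, which form 1 trimer, both had a lower mean in ST than in FC, and neither passed the threshold. Col4a1 (NM_009931, chr8:11199009-11199068 of mm9) read 9.73, 10.01, 9.85 and 9.98 in SC_FC and 9.23, 9.47, 9.02 and 9.67 in SC_ST. Col4a2 (NM_009932, chr8:11448840-11448899 of mm9) read 10.69, 10.61, 10.52 and 10.65 in SC_FC and 10.05, 10.29, 9.85 and 10.52 in SC_ST. The groups did not overlap for Col4a1 and met at 10.52 for Col4a2. The differences were -0.68 (adjusted p 0.00279) and -0.54 (adjusted p 0.0111). In HT against FC they were -0.38 and -0.20. The chains Col4a4, Col4a5 and Col4a6 of other type IV networks gave 0.19, -0.38 and 0.05 in ST against FC.

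Col4a1 and Col4a2 lie head to head on chromosome 8, and their RefSeq starts in GRCm38.p6 are 21 bases apart. The promoter window of Col4a2 is shown because it contains part of that of Col4a1. It is chr8:11312555-11312854 on the plus strand, and capitals mark the 78 bases, chr8:11312777-11312854, that the window of Col4a1 on the minus strand also covers. The Col4a2 window holds 3 GC boxes (GGGCGG on either strand) and 1 CCAAT, a motif that 37.4% of all windows hold on either strand, and the Col4a1 window holds 1 of each. Col4a5 and Col4a6, the like pair on chromosome X, start 1343 bases apart.
Col4a2: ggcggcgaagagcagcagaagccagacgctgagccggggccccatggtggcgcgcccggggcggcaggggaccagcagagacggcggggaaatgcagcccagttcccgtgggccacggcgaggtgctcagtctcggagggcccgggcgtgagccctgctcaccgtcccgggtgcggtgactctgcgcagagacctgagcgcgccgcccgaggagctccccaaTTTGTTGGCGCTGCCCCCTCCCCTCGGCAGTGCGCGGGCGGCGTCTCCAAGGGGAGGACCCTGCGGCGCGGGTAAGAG

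Col18a1 was higher in HT than in both other regions. Its probes lie on the same stretch of chromosome 10 as those of Col6a1 and Col6a2, which were lower in HT. It is a multiplexin, a basement membrane collagen that carries heparan sulfate chains and releases endostatin from its end. Col18a1 (NM_001109991, 2 probes at chr10:76514926-76514985 and chr10:76515790-76515849 of mm9) read 7.33, 8.17, 7.59 and 8.36 in SC_FC, 8.02, 7.73, 8.03 and 7.28 in SC_ST, and 9.25, 9.56, 9.34 and 9.70 in SC_HT. Each SC_HT array was above each array of the other SC groups. The difference was 1.53 against FC (SE 0.265, adjusted p 0.000131) and 1.56 against ST (SE 0.283, adjusted p 0.000395), and its 2 probes gave 1.76 and 1.30 against FC. It passed in both with slide as a fixed block, at 2.31 (adjusted p 0.00391) and 2.0 (adjusted p 0.00265), and within slides it was 2.37 against FC and 1.82 and 2.10 against ST. Without the 3 FC arrays highest in striatal markers it was 1.69 against FC (adjusted p 0.02), and without SC_ST 54 and SC_ST 58 it was 1.43 against ST (adjusted p 0.0184), both short of the threshold. Against SC_FC 52 alone the difference was 2.10. The other multiplexin, Col15a1 of microvessels and muscle, gave 0.25 and 0.34. Of the short chain collagens of endothelial sheets, Col8a2 gave 0.21 for HT against FC and did not pass, and Col8a1, at background on each SC_FC array, was at least 1.67-fold higher in HT.

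Transmembrane collagens are anchored in the cell surface and can be shed. Col25a1, which neurons make and whose shed part was found in amyloid plaques, has 3 rows, and they leaned the same way. The row NM_198711 (chr3:130299222-130299281 of mm9) read 7.72, 7.54, 7.58 and 6.82 in SC_ST, 9.04, 9.01, 8.50 and 8.28 in SC_HT, and 7.88, 7.84, 7.63 and 8.47 in SC_FC. HT was above ST on every array and overlapped FC through SC_FC 58. HT minus ST was 1.18 (SE 0.224, adjusted p 0.00062). The rows NM_029838 and ENSMUST00000106353 gave 0.94 and 0.88 in that comparison, each at an adjusted p under 0.05 but short of 2-fold, and against FC the 3 rows gave 0.74, 0.91 and 0.63, the last with -0.07 within slide 2. The NM_198711 row passed with slide as a fixed block, at 1.36 (adjusted p 0.0089), and within slides 2 and 3 it was 0.72 and 2.03. Without SC_ST 54 and SC_ST 58 it was 1.04 (adjusted p 0.027). Col23a1 gave -1.05 for HT against FC (adjusted p 0.0209), but 0.40 within slide 2 and -0.31 with slide as a fixed block (adjusted p 0.807). The slide 2 value rests on SC_HT 58, the highest SC_HT array for Col23a1 at 7.02, against SC_FC 52. Col17a1, a collagen of skin hemidesmosomes that was well above background on 14 of 23 arrays, gave -0.89 for HT against FC. Col7a1, which forms the anchoring fibrils of skin, gave -0.35 in ST and -0.02 in HT, both against FC.

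The diet comparisons asked whether access to the chocolate mixture changed these genes within a region. In FC, 1 of 40 collagen rows (2.5%) was lower on CM at 2-fold and an adjusted p under 0.01, where 0.28 percent of all rows were lower. Over both directions 2.94 percent of all rows passed. No collagen was called higher by limma, and 2 (5%) were higher at an unadjusted p under 0.05, where 19.6 percent of all rows were. Col2a1 read 6.32, 7.52, 7.30 and 6.77 in SC_FC and 5.80, 6.07 and 6.18 in CM_FC. The CM arrays lay below the SC arrays with no overlap, and SC_FC 52, the SC_FC array low in striatal markers, came closest. The difference was -1.07 (SE 0.25, n = 3 and 4, adjusted p 0.00374). Striatal markers were also lower on CM in FC, with a median of -1.08 over their 7 rows, of which limma called 0 and 3 were lower at an unadjusted p under 0.05, and their part in this difference was not tested. At an adjusted p under 0.05 with no fold threshold, 4 collagens (10%) were lower on CM, where 13.2 percent of all rows were lower. Beside Col2a1 these were Col27a1, Col7a1 and Col23a1. The median collagen difference was -0.13, against -0.04 over all rows, and was 0.0058 with the processed signal scaled to its 75th percentile and -0.0013 with slide as a fixed block. In the model without slide, 27 of 40 collagens were below 0, beside 54.6% of all rows.

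Col27a1 (NM_025685, chr4:62995485-62995544 of mm9), a fibrillar collagen of cartilage, read 6.31, 7.05, 6.41 and 6.57 in SC_FC and 5.87, 5.73 and 5.89 in CM_FC. Its groups did not overlap, and the difference was -0.76 (SE 0.157, adjusted p 0.0015), short of 2-fold. Col7a1 (NM_007738, chr9:108886861-108886920 of mm9) read 9.56, 11.16, 10.10 and 9.97 in SC_FC and 9.51, 9.54 and 9.89 in CM_FC. The groups overlapped, SC_FC 54 was high, and the difference was -0.60 (SE 0.169, adjusted p 0.0115). Col23a1 (NM_153393), a transmembrane collagen, read 6.62, 7.88, 6.45 and 7.29 in SC_FC and 6.0, 6.07 and 6.15 in CM_FC. SC_FC 54 was again the highest array, and the difference was -0.94 (SE 0.319, adjusted p 0.0325), with -0.95, -0.97 and -0.89 at its 3 probes. Probes of 1 gene with opposite signs in this comparison were those of Col14a1, at -0.86 and 0.31, of Col16a1, at -0.37, -0.03 and 0.61, and of Col8a2, at -0.53 and 0.10. The 2 Col4a6 probes, fitted singly, gave 0.63 (adjusted p 0.00183) and 0.01.

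No slide held FC arrays of both diets, so diet and slide could be separated only through the other regions. Blocked by slide as a fixed term, the FC diet difference was -0.07 for Col2a1 (adjusted p 0.997), -0.42 for Col27a1 (adjusted p 0.879), -0.04 for Col7a1 (adjusted p 0.997) and -0.13 for Col23a1 (adjusted p 0.994). None of these passed, and within-slide values could not be formed. The gene Bgn, of the matrix proteoglycan biglycan, was called higher on CM in FC by 1.76 (SE 0.216, adjusted p 3.25e-05). Bgn read 9.65, 9.86 and 9.77 in CM_FC on slide 3, 9.67, 9.43 and 9.70 in the SC_HT arrays on slide 3, and 8.81 in SC_HT 58 on slide 2. The part of slide in its difference was not tested. Within FC itself, diet and slide cannot be told apart. The Col2a1 call ended without SC_FC 54 (-0.95, adjusted p 0.0237), SC_FC 56 (-0.89, adjusted p 0.0278) or CM_FC 54 (-0.96, adjusted p 0.0149). It also ended without the 3 FC arrays highest in striatal markers (-0.93, adjusted p 0.423), and against SC_FC 52 alone the difference was -0.38.

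**Figure D4:**
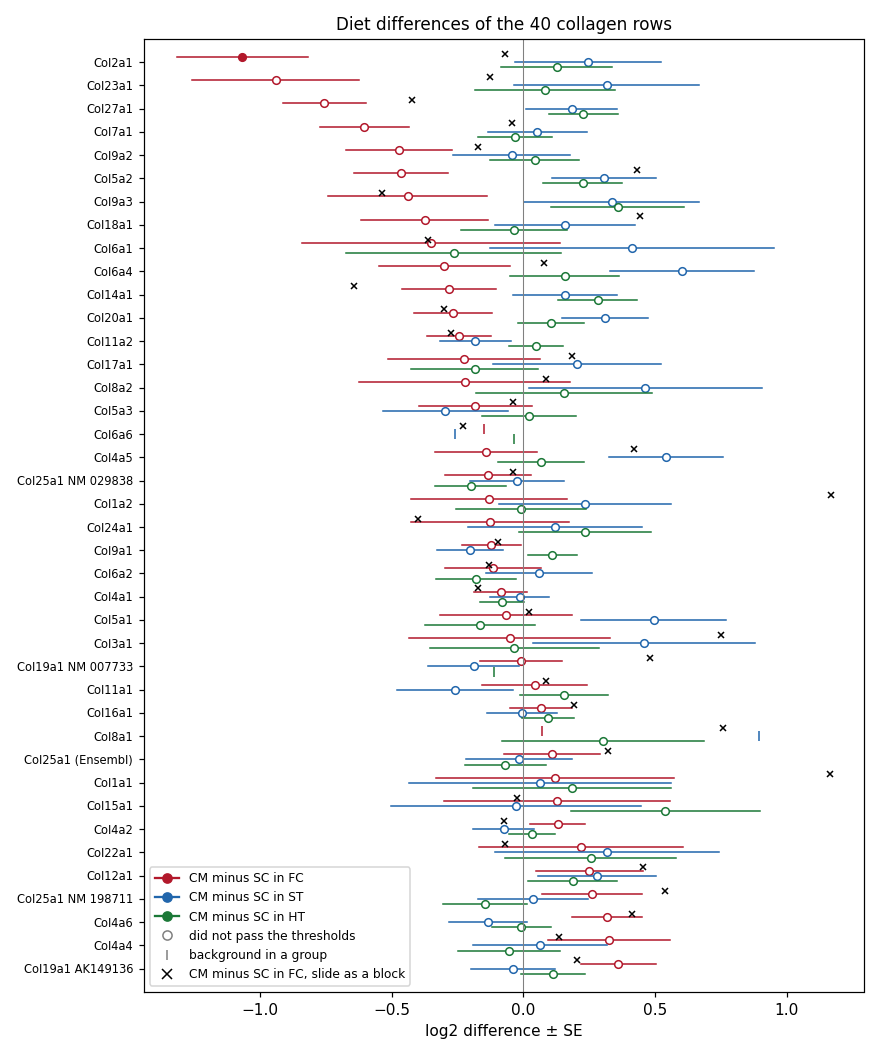
Log2 difference CM minus SC of each of the 40 collagen rows in FC, ST and HT, as points with standard errors, with crosses for the FC difference when slide is a fixed block and bars for rows at background in a group compared. Col2a1 in FC is the filled point, at -1.07, and its cross is at -0.07.

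In ST, limma called 0 of 40 collagens at 2-fold and an adjusted p under 0.01, where 0.602 percent of all rows passed, and 2 collagens (5%) had an unadjusted p under 0.05, beside 25.5 percent of all rows. The smallest p values belonged to Col4a5 at 0.54 (SE 0.216, adjusted p 0.117), Col6a4 at 0.60 (SE 0.274, adjusted p 0.172) and Col20a1 at 0.31 (SE 0.164, adjusted p 0.243). Col6a4 read 6.92, 6.72, 6.84 and 6.92 in SC_ST and 7.59, 7.67, 7.36 and 6.95 in CM_ST. The groups did not overlap, but CM_ST 58 lay close to the SC arrays. Within slide 1, with 4 CM arrays and 1 SC array, the differences were 0.21, 0.47 and 0.23 for Col4a5, Col6a4 and Col20a1. The 2 probes of Col9a1 moved apart, at -0.89 (adjusted p 0.00508) and 0.49 (adjusted p 0.0707) when fitted singly, and the averaged row gave -0.20. The median collagen difference was 0.09, against 0.03 over all rows, and -0.012 with slide as a fixed block.

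In HT, limma called 0 of 40 collagens at 1.5-fold and an adjusted p under 0.05, where 0.178 percent of all rows passed, and 0 collagens had an unadjusted p under 0.05, beside 13.2 percent of all rows. The smallest p values were those of Col14a1 at 0.28 (adjusted p 0.432), Col27a1 at 0.23 (adjusted p 0.481) and Col15a1 at 0.54 (SE 0.359, adjusted p 0.561). Col15a1 read 6.0, 5.45, 5.57 and 5.36 in SC_HT and 5.66, 5.39, 7.45 and 5.57 in CM_HT. Its difference rested on CM_HT 56 and was -0.043 without that array. Col6a1, so low in HT on chow, read 7.70, 8.79, 8.22 and 9.64 on CM, a difference of -0.26 that did not pass. The median collagen difference was 0.06, against 0.01 over all rows, and -0.13 with slide as a fixed block.

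Whether the diet effect differed between regions was tested directly, at an adjusted p under 0.05. For FC against ST, 3 of 40 collagens (7.5%) had a lower diet effect in FC, where 14.2 percent of all rows did, and for FC against HT 3 did, where 7.66 percent of all rows did, so the share was below that of the array in the first and near it in the second. Over both directions 30.1 and 20 percent of all rows differed. No collagen was called in the other direction by limma, and 1 and 0 were higher at an unadjusted p under 0.05, where 19.6 and 17.1 percent of all rows were. The collagens were Col2a1, Col27a1 and Col5a2, 3 fibrillar chains. Against ST the diet effect in FC was lower by -1.31 for Col2a1 (adjusted p 0.0133), -0.94 for Col27a1 (adjusted p 0.00574) and -0.77 for Col5a2 (adjusted p 0.0383). Against HT it was lower by -1.19 (adjusted p 0.0161), -0.98 (adjusted p 0.0025) and -0.69 (adjusted p 0.0473). Col5a2 was well above background on 1 of the 4 SC_ST arrays, which limits its difference against ST. For ST against HT limma called 0 collagens, where 0 percent of all rows passed, and 0 had an unadjusted p under 0.05, beside 14.8 percent of all rows. Both differences share the FC arrays and so the slide of CM_FC. With slide as a fixed block none passed: the values were 0.33, -0.42 and 0.48 against ST and 0.051, -0.59 and 0.77 against HT, for Col2a1, Col27a1 and Col5a2.

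Removal of arrays moved these counts. Without SC_ST 54 and SC_ST 58 the differences against ST were -0.97 for Col2a1 (adjusted p 0.184), -0.73 for Col27a1 (adjusted p 0.0947) and -0.61 for Col5a2 (adjusted p 0.267), and none passed. Without the 3 FC arrays highest in striatal markers they were -1.18 (0.216), -1.07 (0.0759) and -0.79 (0.226), and against HT -1.06 (0.365), -1.12 (0.114) and -0.70 (0.38), with 0 calls by limma among them. Against ST the count was 7 without SC_FC 52, 6 without SC_ST 54, and 5 without SC_ST 52, SC_ST 56, SC_FC 58, CM_ST 52 or CM_ST 58. Against HT it was 1 without SC_HT 54. The Col2a1 difference against HT ended without SC_HT 54 (-1.01, adjusted p 0.057) or SC_FC 56 (-1.02, adjusted p 0.0566). The Col5a2 difference against ST ended without CM_FC 56 (-0.78), CM_FC 58 (-0.69), CM_ST 54 (-0.69), CM_ST 56 (-0.69), SC_FC 54 (-0.68), SC_FC 56 (-0.64), SC_ST 56 (-0.70) or SC_ST 58 (-0.73). Against HT it ended in 13 removals: CM_FC 56 (-0.70), CM_FC 58 (-0.60), CM_HT 52 (-0.70), CM_HT 54 (-0.65), CM_HT 58 (-0.68), CM_ST 58 (-0.69), SC_FC 54 (-0.59), SC_FC 56 (-0.56), SC_HT 54 (-0.58), SC_HT 56 (-0.56), SC_ST 54 (-0.69), SC_ST 56 (-0.69) and SC_ST 58 (-0.69). Col5a2 read 5.91, 6.49, 6.22 and 5.73 in SC_FC and 5.80, 5.63 and 5.45 in CM_FC, so its groups overlapped.

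One array stood apart within CM_ST. CM_ST 58, the array rich in choroid plexus markers, read 7.75 for Col8a1, 8.11 for Col8a2 and 8.00 for Col9a3. The other CM_ST arrays read 4.76, 4.34 and 5.32 for Col8a1, 5.93, 6.05 and 5.86 for Col8a2, and 6.07, 6.13 and 6.45 for Col9a3. The short chain collagens Col8a1 and Col8a2 form sheets under endothelia. Col18a1 at 9.04, Col17a1 at 6.49, Col4a4 at 6.49 and Col4a5 at 7.22 were also the highest of CM_ST on that array. Kl read 11.69 on it and 6.54 to 7.69 on the others. The diet difference of Col8a2 in ST, 0.46, did not pass, none is given for Col8a1, which was at background on each SC_ST array, and the part of choroid plexus in these values was not tested.

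**Figure D5:**
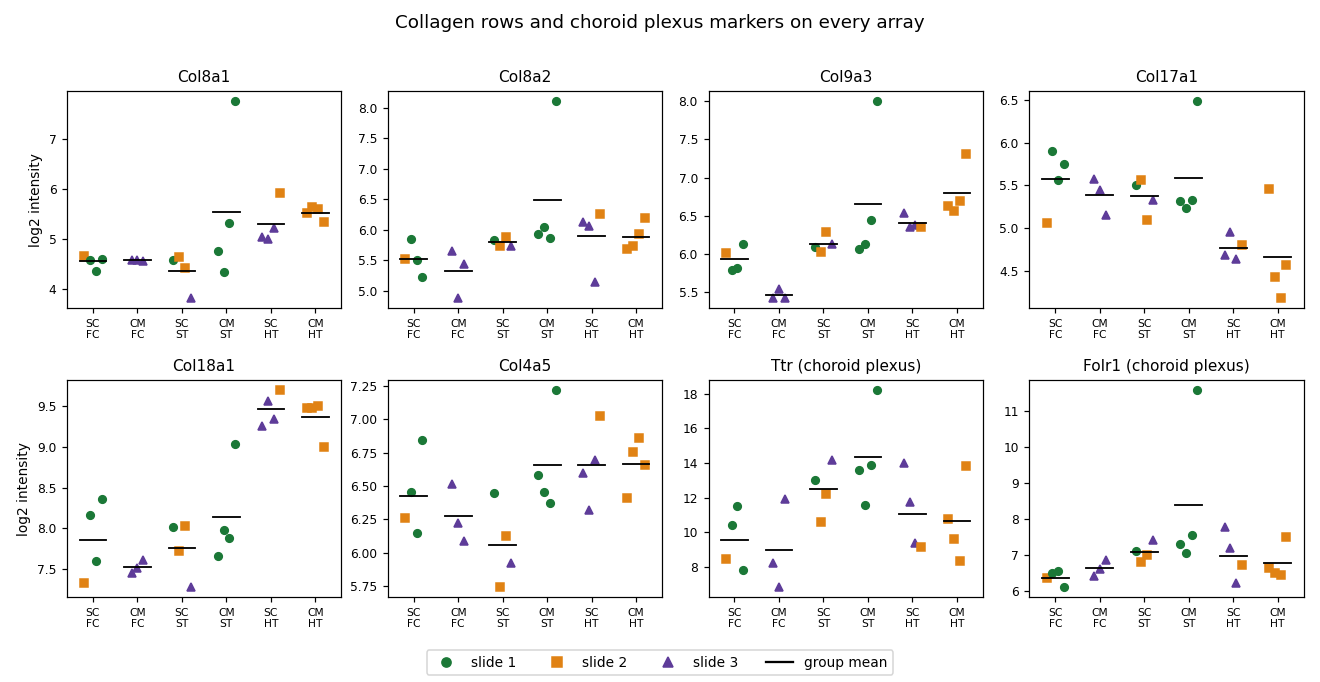
Log2 intensity of Col8a1, Col8a2, Col9a3, Col17a1, Col18a1, Col4a5 and the choroid plexus genes Ttr and Folr1 on each of the 23 arrays, by group. CM_ST 58 is the highest CM_ST array in each panel, with Ttr at 18.21 and Col8a1 at 7.75.

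Genes that make, bind and break down collagen were read as lists beside the collagens. The calls of the lists come from the model without slide, and no slide-block value is given for them. Synthesis genes (prolyl and lysyl hydroxylases, glycosyltransferases and the chaperone Serpinh1 among 19 rows) had 0 calls by limma in the region and diet comparisons. At an unadjusted p under 0.05 there were 7 in ST against FC, 12 in HT against FC, 8 in HT against ST, and 7, 2 and 2 for diet in FC, ST and HT, beside 29, 50.4, 33, 40, 25.5 and 13.2 percent of all rows. Of 13 rows for procollagen processing and crosslinking, Pcolce2, an enhancer of propeptide removal, was higher in HT than in FC by 1.55 (adjusted p 0.000358). Adamts3, a propeptide protease, was lower in HT than in ST by -1.91 (adjusted p 5.93e-05). Lox and Loxl4 of this list had no row. Of 13 receptor rows, the integrin chain Itga11 was lower in HT, by -1.58 against FC (adjusted p 0.000382) and -1.68 against ST (adjusted p 0.000816). The adhesion receptor Gpr56, which binds collagen III, was higher in HT than in FC by 1.1 (adjusted p 1.99e-05). Of 9 rows for degradation, the membrane protease Mmp15 was higher in HT, by 1.27 against FC (adjusted p 3e-05) and 1.09 against ST (adjusted p 0.000545).

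Of 11 basement membrane partners, the laminin chain Lama4 of vessels was lower in HT than in FC by -1.10 (adjusted p 0.000117), and no other row passed in a region or diet comparison. At an unadjusted p under 0.05 there were 3 rows of this list in ST against FC, 2 in HT against FC, 3 in HT against ST and 1 in each diet comparison. Of all rows, 29, 50.4 and 33 percent had such a p in the regions in that order. For diet in FC, ST and HT the shares were 40, 25.5 and 13.2 percent. Among the 11 fibril partners, the collagen-binding protein Sparc read 12.89, 13.37, 13.09 and 13.37 in SC_FC and 15.90, 15.58, 16.02 and 16.20 in SC_HT. All 4 HT arrays were above all 4 FC arrays. Sparc was higher in HT by 2.72 against FC (adjusted p 4.31e-08) and 1.58 against ST (adjusted p 7.88e-05), and higher in ST than in FC by 1.14 (adjusted p 0.00814). Bgn was higher in HT than in FC by 1.48 (adjusted p 6.3e-05), and the part of slide in this difference was not tested. Of the marker lists, choroid plexus had 9 rows, and its gene Otx2 was higher in HT than in FC by 3.44. The other 8 rows were not called there, and the list median was 0.43. Lhb, 1 of the 2 pituitary genes in the table, was higher in HT than in FC by 1.85 and on CM in FC by 2.16. Lhb read 8.25, 8.36 and 8.14 in CM_FC and 8.24, 7.92 and 8.13 in the SC_HT arrays of slide 3. The part of slide in the Lhb differences was not tested. Hemoglobin genes had 0 calls by limma and 0 at an unadjusted p under 0.05 in the region and diet comparisons. The cortical list had 2 of 7 rows lower in ST and 5 of 7 lower in HT, both against FC, and 1 of 7 lower in HT against ST. The striatal list had 7 of 7 lower in HT against ST, 1 of 7 lower in HT against FC and 1 of 7 higher in ST against FC. Of all rows, 0.86, 4 and 2.83 percent were called lower in ST against FC, HT against FC and HT against ST. The share called higher in ST against FC was 1.23 percent.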

How the data were processed

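The authors scanned 23 one-colour arrays (Agilent 8x60K, Cy3) and deposited, for each, spot and local background medians as linear intensities from Feature Extraction, with flags for spots well above background and saturated spots that the authors' scanner software set as 0 or 1. The authors also deposited a table of log2 values. The deposited log2 values were rebuilt from the intensities with R 4.3.3 and its packages data.table (1.17.8), statmod (1.5.0) and limma (3.58.1), by normexp background correction (offset 0), quantile normalization, a filter that kept spots exceeding, on 4 arrays or more, 1.1 times the negative controls' 95th percentile, and averaging by transcript identifier. The largest difference from the deposited value was 5e-09. An array has 62976 spots, controls included, and 36432 to 42261 of its gene spots were well above background. No depth in counts exists for arrays.

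All 31395 rows were fitted with limma: 6 group means, array weights (0.222 to 2.74) and a random block by mouse, whose correlation was -0.0398, with Benjamini-Hochberg adjustment over all of them. It was tested on simulated data, and the results of that test are not given here. A row was called at 2-fold with an adjusted p below 0.01 for regions and for diet in FC and ST, 1.5-fold and 0.05 for diet in HT, and 0.05 for differences of diet effects. The mouse numbers in the titles pair the regions: after removal of group means, 22 pairs of arrays of 1 mouse had correlations from -0.486 to 0.131 (median 0.0236), and 11 pairs of the same number on the other diet from -0.321 to 0.136, so the data did not tell the pairing.

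Every collagen row is accounted for. Full statistics are given, in each region comparison, for the 4 largest rises and 4 largest falls among called rows and, in each diet comparison, for called rows and the smallest p up to 3; a called row outside this, or an array that stood apart, was described after its values were seen. Trimer partners and transmembrane chains get a short account. Members, gene lists (6 of collagen partners and 10 of cell type and tissue markers) and classes were chosen with earlier results of these data known. Symbols of 37 rows matched RefSeq, probe coordinates are the mm9 ones of the array annotation, and promoter windows come from RefSeq (GRCm38.p6). Counts were recomputed under 42 to 44 settings and named rows under 41 or 42, of which 23 leave out 1 array. The 6 that leave out arrays high in markers of another tissue, and 1 that leaves rows at background in a group out of the counts, were chosen after seeing the data.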

Additional observations from a re-analysis of the deposited data

Results flagged for a closer look

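Some single arrays lay far from the rest of their group of 4, by the gap to the nearest other array relative to the range of the group. This was so in 14 of 200 groups of collagen values, and chance flags about 1 in 20 groups. In SC_FC these were Col24a1 at 8.39 in SC_FC 54 and Col6a2 at 8.20 in SC_FC 58. In the striatum they were Col6a2 at 8.74 in SC_ST 58, Col5a3 at 7.95 in CM_ST 56, and Col17a1 at 6.49 and Col8a2 at 8.11 in CM_ST 58, the array rich in choroid plexus markers. In SC_HT they were Col1a2 at 12.53 and Col3a1 at 7.42 in SC_HT 58, the array richest in fibroblast markers, Col9a3 at 6.54 in SC_HT 52 and the row AK149136 of Col19a1 at 5.46 in SC_HT 56. In CM_HT they were Col15a1 at 7.45 in CM_HT 56, Col18a1 at 8.99 in CM_HT 58, Col23a1 at 5.31 in CM_HT 52 and Col5a1 at 6.43 in CM_HT 54. The diet effect differed between regions, by the test of the difference itself, for 3 fibrillar collagens, 7.5% of the 40 rows, where 30.1% of all rows differed for FC against ST and 20% for FC against HT. FC minus ST was -0.94 for Col27a1, -1.31 for Col2a1 and -0.77 for Col5a2, and FC minus HT was -0.98 for Col27a1, -1.19 for Col2a1 and -0.69 for Col5a2. With slide as a fixed block none of these differences passed. Col5a2 was well above background on 1 of the 4 SC_ST arrays, which limits its value against ST. CM_FC sat on a slide with no SC_FC array, and within FC, diet and slide cannot be told apart.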

How the results depend on the processing

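Over the settings chosen beforehand, the differences of named collagens kept direction and side of the threshold in 989 cases, lost the threshold in 115 and changed sign in 5. Over those chosen after seeing the data, 110 kept both and 76 lost the threshold. The cases that kept both include rows not called in the main model, which could not lose the threshold. Col7a1 for diet in FC, 1 of these rows, counted as kept in 42 of 42 settings. Its difference ran from -0.84 to -0.04 over them. The settings chosen after seeing the data include 2 without SC_FC 54, SC_FC 56 and SC_FC 58 (the 4 FC and the 9 arrays below), which leave SC_FC 52 alone, assumed to vary like the other groups. Col19a1 NM_007733 in HT, which has only a bound, was not followed. Another such setting counts only rows well above background on an array of each group compared, and it gave 8 for HT against FC and the main count elsewhere. The count for diet in FC, 1, was 0 with slide as a fixed or random block, without array weights, with an offset of 50, with the processed signal scaled to its 75th percentile, with only the arrays of the 2 groups, without the 3 FC arrays highest in striatal markers (SC_FC 56, SC_FC 58 and CM_FC 58), without these and SC_FC 54 (the 4 FC arrays), without 8 arrays high in markers of another tissue and without these and SC_FC 54 (the 9 arrays), and 4 with no fold threshold at an adjusted p under 0.05. Leaving out 1 array gave 0 to 1. The count for ST against FC, 3, was 1 with slide as a random block, 0 with scaling to the 75th percentile, 0 with only the 2 groups, 0 without the 2 SC_ST arrays high in cortical markers, 0 without the 3 FC arrays, 1 without the 4 FC arrays, 1 without the 2 HT arrays high in striatal markers, 1 without the 8 arrays and 8 with no fold threshold. With mouse as a fixed term in place of the random block, it was 1. Col22a1 was then at -1.99 (adjusted p 0.0132) and Col5a1 at -1.36 (adjusted p 0.0111). Leaving out 1 array gave 0 to 4. For HT against FC, 9, it was 2 with the slide fixed block, 4 with the offset, 2 without the 3 FC arrays, 4 without the 8 arrays and 21 with no fold threshold, and 9 to 11 over single removals. For HT against ST, 5, it was 3 with the slide fixed block, 2 with the offset, 9 with 1 value per probe, 3 with only the 2 groups, 1 without the 2 SC_ST arrays, 3 without the 8 or the 9 arrays and 11 with no fold threshold, and 4 to 6 over single removals. Diet in ST and in HT stayed at 0 in every setting run. For each moved count, here and below, the cause was not tested. The shares of all rows called under these settings are not given, so a moved count is not read as particular to collagens.

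The count of diet effects that differ between FC and ST, 3, was 0 with slide as a fixed or random block and 5 with no block. It was 6 with the replicate number as a fixed term beside the mouse block. With the offset it was 8, with scaling to the 75th percentile 5 and with 1 value per probe 8. It was 0 without the 2 SC_ST, the 3 FC, the 8 or the 9 arrays and 1 without the 4 FC arrays. Single removals gave 2 to 7. Between FC and HT, 3, it was 0 with slide as a fixed or random block, 1 without array weights, 5 with 1 value per probe, and 0 without the 3 FC, the 8 or the 9 arrays, 1 without the 4 FC arrays, and single removals gave 1 to 4. Between ST and HT, 0, it was 1 with 1 value per probe. With slide as a fixed block, signs changed for Col2a1 (0.33 for FC against ST, 0.051 for FC against HT) and Col5a2 (0.48 and 0.77), and without CM_HT 56 the HT diet difference of Col15a1 was -0.043, the lowest over single removals, with 0.74 the highest. Quantile normalization within each region moved the median of all genes to 0.15 for HT against FC and 0.19 for HT against ST, from 0.02 and 0.03, and that of the collagens to 0.2 and 0.44. The cause was not tested. Signal near background limits Col6a4, Col17a1 and Col19a1 NM_007733 in HT, Col5a2 in SC_ST, Col8a1 in FC and ST, and Col6a6 throughout.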
